A study of Sus scrofa with 4 samples.

Results

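The genes described here are the ligands TGFB1, TGFB2, TGFB3, INHBA, BMP2 and BMP4, the signal transducers SMAD3 and SMAD7, and the target gene TGFBI. They were chosen by symbol among the protein-coding rows, and all 9 symbols were found among 16192 protein-coding genes. Subcutaneous preadipocytes of 5-day-old male Chinese Erhualian piglets were differentiated in culture, and RNA was sequenced at D0, D2, D4 and D8, that is 0, 2, 4 and 8 days after induction. D0 cells were confluent and had not yet received the cocktail of dexamethasone, IBMX and insulin. D2 cells had received it for 2 days, D4 cells had then spent 2 days with insulin, and D8 cells had been kept in growth medium after that. For each stage, equal amounts of RNA from 3 piglets were pooled into 1 library. The stages thus have no replicates. Each difference between stages is one between single libraries, the effect of stage and that of library cannot be told apart, and no test is given.

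Ligands of the TGF-beta superfamily bind pairs of serine/threonine kinase receptors, which phosphorylate SMAD proteins that enter the nucleus with SMAD4. TGF-beta and activin act mainly through SMAD2 and SMAD3, and BMPs through SMAD1, SMAD5 and SMAD9, while SMAD6 and SMAD7 inhibit signalling. In adipose progenitors, TGF-beta and activin are known as inhibitors of differentiation, and BMP2 and BMP4 as signals that favour commitment to the adipocyte lineage.

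Levels are FPKM, fragments per kilobase of gene, scaled by all fragments counted in the library. This takes account of gene length and library size, but not of differences in RNA composition between libraries. Ratios between libraries therefore depend on the scaling, most of all those with the D8 library, for which other scalings are given below. The library totals worked out from the deposited values ran from 54128151 to 75387428 fragments. The 95% intervals given below come from read numbers and cover counting error only, not the spread between piglets or cultures. The FPKM of 8 adipocyte markers added up to 122 at D0, followed by 484 (D2), 1715 (D4) and 2066 (D8). From D4 to D8, FABP4 rose from 853 to 1557 FPKM and CIDEC from 5.01 to 54.6. PPARG, CEBPA, ADIPOQ, PLIN1 and LPL fell over that step, and LEP was at most 0.314 FPKM in any library. The summed FPKM of 7 stromal progenitor markers ran from 1130 to 3034. COL3A1 was its largest part, with 491 FPKM at D0 and 2058 at D4, whereas THY1 and COL1A1 were lower at D4 than at D0. Of the endothelial markers, PECAM1 ran from 1.14 to 2.56 FPKM, and CDH5, VWF, TEK and KDR were below 0.1 FPKM in all 4 libraries. Of the immune markers, CD14 ran from 2.78 to 7.54 FPKM and PTPRC was below 0.1 in all 4 libraries.

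The 9 genes spanned a wide range of levels. TGFBI had the highest FPKM of the 9 in each library, and BMP2 the lowest. At D0, the order per length was TGFBI, TGFB3, SMAD3, INHBA, SMAD7, TGFB2, BMP4, TGFB1 and BMP2, in which the counting intervals of the neighbours BMP4 (0.510 to 0.692 FPKM) and TGFB1 (0.439 to 0.643 FPKM) overlapped. At D4, SMAD3 stood second and SMAD7 and TGFB2 stood above INHBA. Of the 9 genes, 6 were reliably expressed, which means that they reached 1 FPKM in 3 or more libraries, and those 6 (TGFB2, TGFB3, INHBA, SMAD3, SMAD7 and TGFBI) had at least 1 FPKM in all 4. TGFB1, BMP2 and BMP4 stayed below 1 FPKM in all 4 libraries and enter no count of changed genes.

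**Figure D1:**
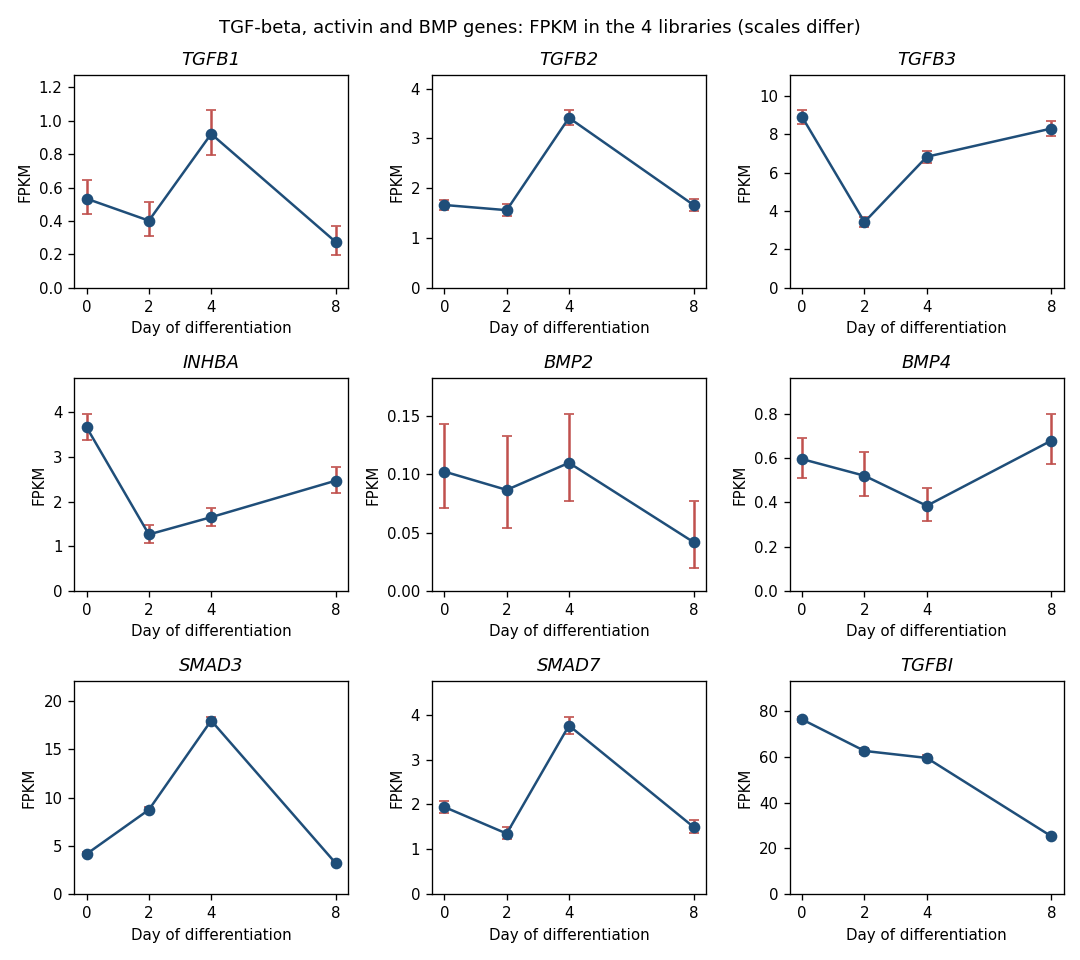
FPKM of the 9 genes (vertical axis, from 0, a separate scale for each gene) by day of differentiation (horizontal axis), 1 library per day, with 95% counting intervals as bars. TGFB1, TGFB2, SMAD3 and SMAD7 were highest at D4, TGFB3 and INHBA were lowest at D2, and TGFBI was lowest at D8.

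TGFB3, on chromosome 7 from 99133873 to 99162239 (minus strand, pig build Sscrofa11.1), was the most abundant TGF-beta ligand gene at every stage. Its level was 8.89 FPKM at D0, 3.43 at D2, 6.83 at D4, then 8.30 at D8, from 2553, 718, 1933 and 1710 reads. It was thus low at D2 and near its starting level at D8. The fall from D0 to D2 was 2.59-fold (log2 ratio −1.37, interval −1.496 to −1.255). The later level at D4 was 1.99 times that at D2 (log2 ratio 0.99, interval 0.87 to 1.12), just under the 2-fold threshold. The D8 to D0 log2 ratio was −0.10 (interval −0.19 to −0.01), and it had the opposite sign, 0.06, when the libraries were scaled by median ratios. In bulk RNA, fewer cells that express a gene and less RNA of it per cell cannot be told apart. TGFB3 shares 6351 bases with IFT43, an intraflagellar transport gene on the opposite strand, and it is not stated whether reads were counted by strand, so that reads of the shared bases may belong to either gene. IFT43 had 18.5 FPKM at D0, followed by 7.86 (D2), 6.94 (D4) and 13.7 (D8), so that it too was lower at D2 than at D0.

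TGFB2, on chromosome 10 from 8306136 to 8435307 (plus strand), had 1.66 FPKM at D0, 1.56 at D2, 3.41 at D4, then 1.66 at D8, from 1018, 696, 2060 and 731 reads. The D4 library stood apart from the other 3, whose neighbouring levels in order (D8, D0, D2) did not differ beyond counting error. The D4 level was 2.18 times that at D2 (log2 ratio 1.13, interval 1.01 to 1.26) and 2.05 times that at D0 (1.03, interval 0.93 to 1.15). From D4 to D8 it fell 2.05-fold (−1.03, interval −1.16 to −0.91). The D4 to D0 and D8 to D4 differences lie close to 2-fold and were below it with a pseudocount of 0.1 or with median-ratio scaling, at log2 −0.82 in the latter case for D8 against D4.

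TGFB1, the ligand most often studied in other tissues, lies on chromosome 6 from 49332169 to 49348642 (minus strand) and was low throughout. It had 0.534 FPKM at D0, followed by 0.402 (D2), 0.921 (D4) and 0.275 (D8), from 111, 61, 189 and 41 reads. Its order, D4 above D0, D2 and D8, had only the step from D4 to D0 clear of counting error between neighbours. At the same stages, the coding gene LOC110261354, which overlaps 373 bases of TGFB1 on the same strand, had 12, 0, 11 and 0 reads, and an assembled antisense gene that overlaps 763 bases had 3, 0, 14 and 0.

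The 3 TGF-beta ligand genes together had 11.09 FPKM at D0, 5.39 at D2, 11.2 at D4, then 10.2 at D8. The sum was thus low in the D2 library alone. TGFB3 made up 80.2% of it at D0, followed by 63.6% (D2), 61.2% (D4) and 81.1% (D8), and TGFB1 4.81%, 7.46%, 8.25% and 2.68%. TGFB2 held the rest, which was 28.9% in the D2 library, 30.6% in the D4 library and 16.3% in the D8 library. The D4 sum was close to the D0 sum with a larger TGFB2 part, whereas D8 resembled D0 in both the sum and its makeup.

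**Figure D2:**
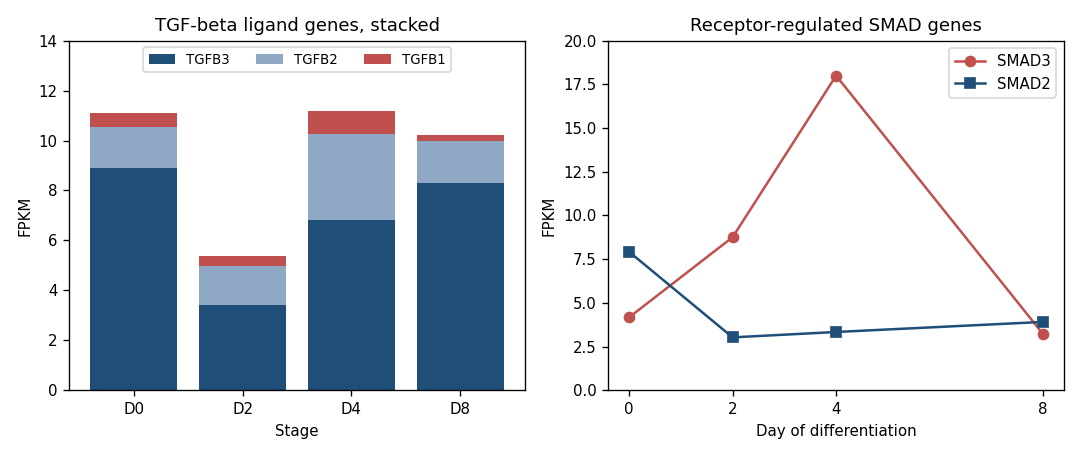
Left, FPKM of TGFB3, TGFB2 and TGFB1 stacked (vertical axis) in the 4 stages, with sums from 5.39 at D2 to 11.2 at D4. Right, FPKM of SMAD3 and SMAD2 by day, where SMAD3 is below SMAD2 at D0 and D8 and above it at D2 and D4.

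INHBA encodes the beta A subunit, a dimer of which is activin A. The protein-coding row lies on chromosome 18 from 52889684 to 52909260 (plus strand). It had 3.67 FPKM at D0, 1.27 at D2, 1.65 at D4, then 2.47 at D8, from 591, 149, 263 and 286 reads. INHBA was highest before induction, and no neighbours in the order D0, D8, D4, D2 had intervals of their ratio that included 0 on the log2 scale. It fell 2.88-fold from D0 to D2 (log2 ratio −1.53, interval −1.80 to −1.27) and was 2.21-fold lower at D4 than at D0 (−1.14, interval −1.36 to −0.94). The table also holds a second row named INHBA, of biotype other, on chromosome 12 from 53115379 to 53117128. That row ran the other way, with 1.08 FPKM at D0, followed by 2.40 (D2), 2.72 (D4) and 0.929 (D8). The RefSeq gene table of the same build lists INHBA at the position of the second row, and the first row matched no entry. With the FPKM of both rows added, the levels were 4.74, 3.67, 4.37 and 3.40 FPKM, and the log2 ratios to D0 were −0.37 at D2 and −0.12 at D4, so that neither passed 2-fold. The D8 to D4 log2 ratio was 0.58 in the first row and −0.36 with both added, and the lowest stage was then D8 rather than D2. The worked-out length of the second row, 1750 bases, equals its whole span, and that of the first row was 2139 bases. The change of INHBA therefore depends on which row stands for the gene.

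FST encodes follistatin, which binds activin and blocks it. Its values were looked up because of its role, but it was not among the genes chosen by the naming rule. FST had 0.830 FPKM at D0, 2.28 at D2, 5.06 at D4, then 2.58 at D8, and the D4 level was 6.04 times that at D0. The ratio of INHBA (chromosome 18 row) to FST in FPKM was 4.42 at D0, followed by 0.557 (D2), 0.327 (D4) and 0.958 (D8). INHBA was thus above FST only in the D0 library, and with both INHBA rows added (3.67 and 3.40 FPKM) it was also above FST at D2 and D8. FSTL3, which also binds activin, stood above INHBA at every stage, with 36.4, 6.60, 7.54 and 21.5 FPKM, also with both rows added.

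BMP4, on chromosome 1 from 183415989 to 183422888 (minus strand), had 0.596 FPKM at D0, 0.520 at D2, 0.385 at D4, then 0.679 at D8, from 171, 109, 109 and 140 reads. The D8 level was 1.75 times that at D4 (log2 ratio 0.80, interval 0.45 to 1.19), and the neighbours D8 and D0, and D0 and D2, did not differ beyond counting error. BMP2, on chromosome 17 from 15750487 to 15762982 (plus strand), had 0.102, 0.0866, 0.110 and 0.0419 FPKM at D0, D2, D4 and D8, from 34, 21, 36 and 10 reads. No neighbours in its order differed beyond counting error, although the D8 level was below that at D4 (log2 ratio −1.21, interval −2.57 to −0.35). BMP4 stood above BMP2 in all 4 libraries, by a factor of 3.50 at D4 to 16.2 at D8.

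SMAD3, which carries TGF-beta and activin signals to the nucleus, had the widest range of the 6 reliably expressed genes. It lies on chromosome 1 from 164998457 to 165124455 (plus strand). Its level was 4.17 FPKM at D0, followed by 8.75 (D2), 18.0 (D4) and 3.21 (D8), from 1887, 2888, 8027 and 1043 reads. SMAD3 thus climbed in each of the libraries up to D4 and was lowest at D8, with no overlap of counting intervals between any stages. The rise from D0 to D2 was 2.10-fold (log2 ratio 1.07, interval 0.98 to 1.15) and that from D2 to D4 2.05-fold (1.04, interval 0.98 to 1.10). From D4 to D8 it fell 5.59-fold (−2.48, interval −2.58 to −2.39), and only 0.272% of the reliably expressed genes had a lower ratio. The step from D2 to D4 was below 2-fold under both other scalings, at log2 0.95 and 0.97. AAGAB, a gene on the opposite strand that shares 1450 bases with SMAD3, ran only from 6.02 to 6.79 FPKM.

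SMAD2, the close relative of SMAD3 that serves the same receptors, was named after its values were seen. It had 7.92 FPKM at D0, 3.03 at D2, 3.33 at D4, then 3.91 at D8, and fell 2.61-fold from D0 to D2. The SMAD3 to SMAD2 ratio of FPKM was 0.527 at D0, followed by 2.89 (D2), 5.40 (D4) and 0.822 (D8). SMAD3 made up 34.5% of the sum of both at D0 and 84.4% at D4.

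SMAD7, the inhibitory SMAD that is itself induced by TGF-beta and BMP signals, lies on chromosome 1 from 98512800 to 98543924 (minus strand). It had 1.94 FPKM at D0, 1.35 at D2, 3.76 at D4, then 1.499 at D8, from 775, 393, 1478 and 429 reads. Like TGFB2 and SMAD3, it was highest in the D4 library, and its D8 and D2 levels did not differ beyond counting error. The rise from D2 to D4 was 2.77-fold (log2 ratio 1.47, interval 1.31 to 1.64), with 97.8% of reliably expressed genes below that ratio. From D4 to D8 it fell 2.50-fold (−1.32, interval −1.48 to −1.17), and the D4 to D0 ratio of 1.93 was short of 2-fold.

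TGFBI encodes an extracellular matrix protein that was named for its induction by TGF-beta. It lies on chromosome 2 from 138191793 to 138225373 (plus strand). Its level was 76.3 FPKM at D0, followed by 62.6 (D2), 59.5 (D4) and 25.3 (D8), from 15638, 9354, 12031 and 3725 reads. TGFBI was the only one of the 9 genes with its levels in the order of the stages, and its main step was the last. It fell 2.35-fold from D4 to D8 (log2 ratio −1.23, interval −1.29 to −1.18). The D8 level was 3.01-fold below that at D0 (−1.59, interval −1.64 to −1.54), and 0.696% of the reliably expressed genes had a lower ratio.

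Across the 5 comparisons, a gene was counted as changed where FPKM + 0.01 differed at least 2-fold between the 2 libraries. The background is the same count over the 9191 reliably expressed protein-coding genes. From D0 to D2, 1 of the 6 reliably expressed members rose (SMAD3) and 2 fell (TGFB3 and INHBA), where 6.67% of all genes rose and 10.1% fell. From D2 to D4, 3 rose (TGFB2, SMAD3 and SMAD7) and 0 fell, where 4.24% of all genes rose and 0.838% fell. From D4 to D8, 0 rose and 4 fell (TGFB2, SMAD3, SMAD7 and TGFBI), where 4.43% of all genes rose and 10.1% fell. The median log2 ratio of the 6 genes was −0.40 for D2 against D0, 1.01 for D4 against D2 and −1.13 for D8 against D4, beside −0.03, 0.09 and −0.21 over all genes. TGFB2, SMAD3 and SMAD7 rose into D4 and fell out of it. Neighbouring steps share a library (D2 or D4), so that they are not separate evidence.

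Against D0, 2 of the 6 genes were higher at D4 (TGFB2 and SMAD3) and 1 was lower (INHBA), where 10.4% of all genes were higher and 8.81% lower. At D8, 0 were higher and 1 was lower than at D0 (TGFBI), where 3.60% of all genes were higher and 3.68% lower. The medians of the 6 genes were 0.29 at D4 and −0.37 at D8, beside 0.06 and −0.18 over all genes. All comparisons with D0 share that library. The scaling of the D8 library moved the background: the median of all genes was −0.21 for D8 against D4 and −0.18 for D8 against D0 as deposited, and 0.00 and −0.03 with median-ratio scaling. Of the genes called, 30.5% were higher at D8 in the comparison with D4 and 49.5% in that with D0 as deposited, and 52.0% and 66.1% with that scaling. The falls of SMAD3, SMAD7 and TGFBI from D4 to D8 stayed past 2-fold there, at log2 −2.27, −1.11 and −1.02.

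**Figure D3:**
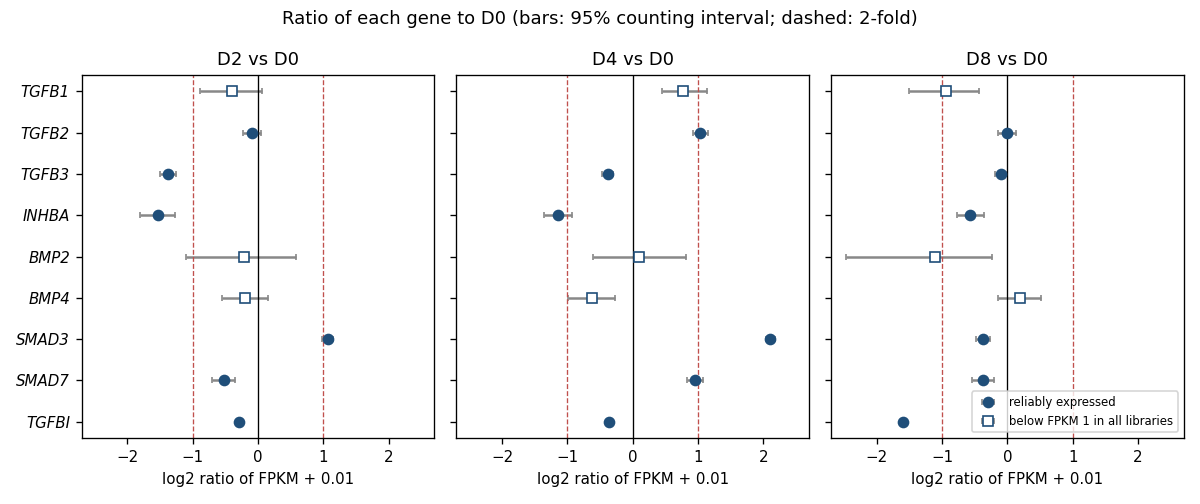
Log2 ratio of FPKM + 0.01 to D0 (horizontal axis) for the 9 genes at D2, D4 and D8, with 95% counting intervals as bars, filled circles for the 6 reliably expressed genes, open squares for the 3 below FPKM 1, and dashed lines at 2-fold. SMAD3 lies furthest to the right at D4 (2.11) and TGFBI furthest to the left at D8 (−1.59).

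The members were then set beside 8 lists of pathway genes. Members and lists were chosen with earlier results of these data known, so that their shares beside those of all genes are a description. The lists held 99 genes in all with the 9 members included, of which 94 were in the table and 67 were reliably expressed. Of these 67 genes, 5 (7.46%) rose and 18 (26.9%) fell from D0 to D2, where 6.67% and 10.1% of all genes did. From D2 to D4, 8 (11.9%) rose and 4 (5.97%) fell, beside 4.24% and 0.838% of all genes. From D4 to D8, 9 (13.4%) rose and 13 (19.4%) fell, beside 4.43% and 10.1%. Against D0, 10 (14.9%) were higher and 17 (25.4%) lower at D4, beside 10.4% and 8.81%, and 4 (5.97%) were higher and 15 (22.4%) lower at D8, beside 3.60% and 3.68%. The share that rose from D0 to D2 was thus near that of all genes. Without the 9 members, 61 reliably expressed genes remained. Of these, 4 (6.56%) rose and 16 (26.2%) fell from D0 to D2, and 5 (8.20%) rose and 4 (6.56%) fell from D2 to D4. From D4 to D8, 9 (14.8%) of the 61 rose and 9 (14.8%) fell. Against D0, 8 (13.1%) of the 61 were higher and 16 (26.2%) lower at D4, and 4 (6.56%) were higher and 14 (23.0%) lower at D8. The median log2 ratios of the 67 genes were −0.25, 0.15 and −0.17 for the 3 steps in order of time, beside −0.03, 0.09 and −0.21 over all genes.

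Ligand genes were mostly low. Of 22 listed, 17 were in the table and only TGFB2, TGFB3, INHBA and GDF15 were reliably expressed. GDF15, a stress-induced member of the superfamily that was named after its values were seen, had 3.65 FPKM at D0, 1.55 at D2, 0.261 at D4, then 2.20 at D8, lowest at the stage where TGFB2 was highest.

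Of 15 receptors and co-receptors, 11 were reliably expressed. From D0 to D2, 2 (18.2%) rose, beside 6.67% of all genes, and 1 (9.09%) fell, near the 10.1% of all genes. From D2 to D4, 0 rose and 0 fell, where 4.24% of all genes rose and 0.838% fell. From D4 to D8, 0 rose and 2 (18.2%) fell, where 4.43% of all genes rose and 10.1% fell. These 2 were TGFBR3 and, named after its values were seen, ENG. The median log2 ratios of the 11 genes were −0.01, 0.15 and −0.47 for these steps. TGFBR3, betaglycan, the co-receptor that presents TGF-beta2 to the signalling receptors, had 3.37 FPKM at D0, followed by 23.3 (D2), 22.7 (D4) and 3.27 (D8). It rose 6.91-fold from D0 to D2 and fell 6.93-fold from D4 to D8, so that the middle libraries stood apart from the outer ones. TGFBR3 made up 7.75% of the summed FPKM of TGFBR1, TGFBR2 and TGFBR3 at D0, 40.2% at D2, 37.7% at D4, then 8.62% at D8. ACVR2A, a type II receptor for activins and BMPs, rose 2.45-fold from D0 to D2, with 7.20, 17.7, 19.1 and 11.5 FPKM over the 4 stages. TGFBR2 ran only from 15.2 to 21.6 FPKM and TGFBR1 from 13.1 to 19.4.

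All 8 SMAD genes were reliably expressed. Besides SMAD3 and SMAD7, the calls were a fall of SMAD2 from D0 to D2, which left it past 2-fold below D0 at D4 and D8, a fall of SMAD6 from D4 to D8, and lower SMAD6 and SMAD9 at D8 than at D0. At D8 against D0, SMAD2 and SMAD9 lay close to 2-fold, at log2 −1.02 and −1.01. With the members included, 3 of the 8 (37.5%) fell from D4 to D8 and 0 rose, beside 10.1% and 4.43% of all genes. Against D0, 3 (37.5%) were lower and 0 higher at D8, beside 3.68% and 3.60% of all genes. SMAD4, the shared partner, ran from 9.56 to 11.9 FPKM and SMAD5 from 13.8 to 19.1. Of 11 cofactor and turnover genes, 2 (18.2%) fell and 0 rose from D0 to D2, where 10.1% of all genes fell and 6.67% rose. These were SMURF2, a ubiquitin ligase that works with SMAD7 on the receptors, with 20.5, 7.06, 7.89 and 11.6 FPKM, and SKIL, a SMAD co-repressor, with 10.9, 4.43, 7.26 and 8.07 FPKM. Between D0 and D8, 0 of the 11 differed 2-fold (median −0.43, beside −0.18 over all genes), where 3.60% of all genes were higher and 3.68% lower.

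Of 12 genes listed under latency and activation, the storage of TGF-beta in the matrix and its release, 8 were reliably expressed. From D0 to D2, 4 (50.0%) fell and 0 rose by 2-fold, where 10.1% of all genes fell and 6.67% rose. The other 4 of the 8 were higher at D2 than at D0 by less than 2-fold. THBS1, thrombospondin 1, an activator of latent TGF-beta, had 1689 FPKM at D0, followed by 191 (D2), 212 (D4) and 621 (D8). LTBP2, a matrix protein of the latent TGF-beta binding family, had 15.7, 5.88, 2.09 and 3.42 FPKM. Of 14 extracellular antagonists, 9 were reliably expressed, and 2 (22.2%) rose and 1 of the 9 fell from D0 to D2, beside 6.67% and 10.1% of all genes. BMPER, a secreted BMP-binding protein, had 0.182 FPKM at D0, 4.93 at D2, 12.0 at D4, then 2.08 at D8. FSTL3, a follistatin relative that also binds activin, went the other way from FST, with 36.4, 6.60, 7.54 and 21.5 FPKM. DCN, decorin, a proteoglycan that binds TGF-beta, was 2.14-fold higher at D4 than at D0, and NBL1, a BMP antagonist, 2.08-fold lower.

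**Figure D4:**
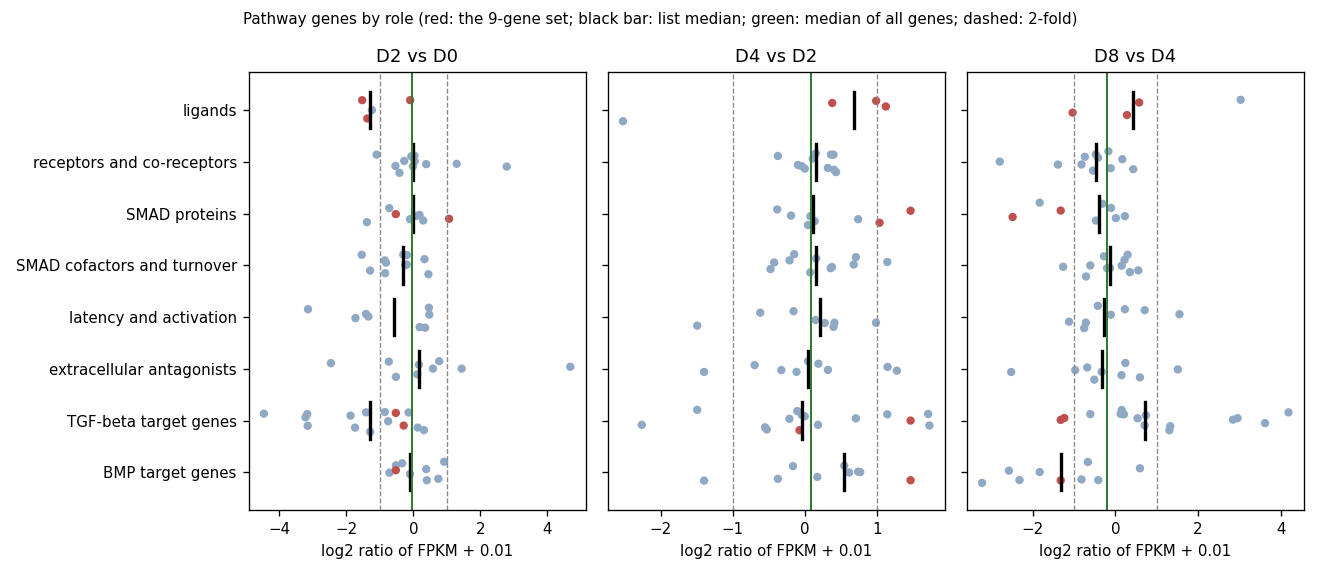
Log2 ratio of FPKM + 0.01 (horizontal axis) of reliably expressed pathway genes, 1 point a gene in each list that holds it, in 8 lists (vertical axis) and the 3 steps between neighbouring stages. The 6 reliably expressed genes of the 9-gene set are in red, list medians are black bars and the median of all genes is a green line. TGF-beta target genes had a median of −1.29 from D0 to D2, and BMP target genes a median of −1.32 from D4 to D8.

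Of 15 TGF-beta target genes, TGFBI and SMAD7 included, 0 rose and 8 fell from D0 to D2 (median −1.29), 4 rose and 2 fell from D2 to D4 (median −0.04), and 6 rose and 2 fell from D4 to D8 (median 0.71). The 8 that fell from D0 to D2 are 53.3% of the list and the 6 that rose from D4 to D8 40.0%, where 10.1% and 4.43% of all genes did. The 4 that rose and 2 that fell from D2 to D4 are 26.7% and 13.3%, beside 4.24% and 0.838% of all genes. The 2 that fell from D4 to D8 are 13.3%, beside 10.1%. Against D0, 7 of the 15 (46.7%) were lower and 0 higher by 2-fold at D4, where 4 had a ratio above D0. Of all genes, 8.81% were lower and 10.4% higher at D4. At D8, 4 (26.7%) were lower and 2 (13.3%) higher by 2-fold, beside 3.68% and 3.60% of all genes. CTGF, a matricellular growth factor gene, had 44.5, 2.01, 6.70 and 52.0 FPKM in the order of the stages, and ELN, elastin, 22.6, 6.77, 1.41 and 25.7 FPKM. ACTA2, smooth muscle actin, had 2907, 324, 225 and 2762 FPKM, and TAGLN, transgelin, 2767, 297, 277 and 1987 FPKM. CTGF, ELN, ACTA2 and TAGLN were thus high in the outer libraries and low at D2 and D4. TGFBI and SMAD7 were the 2 of the 15 that fell at least 2-fold from D4 to D8. PMEPA1, named after its values were seen, was also lower at D8, with 1.55 and 1.02 FPKM (log2 ratio −0.61).

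ACTA2 and TAGLN are also on the list of 5 smooth muscle markers, and they make up most of its summed FPKM, which was 6205 at D0, 664 at D2, 509 at D4, then 4810 at D8. The other smooth muscle markers were low at D2 and D4 as well and stayed far below D0 at D8. DES, desmin, had 436, 37.7, 4.05 and 35.7 FPKM, and CNN1, calponin, 94.3, 4.22, 2.39 and 24.2 FPKM. MYH11, a defining marker of mature smooth muscle, was below 1 FPKM in all 4 libraries, from 0.289 to 0.633. The part of other cell types in the target genes was not tested.

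Of 11 BMP target genes, 9 were reliably expressed, SMAD7 included. From D0 to D2, 0 rose and 0 fell, from D2 to D4 1 rose and 1 fell (median 0.55), and from D4 to D8 0 rose and 5 (55.6%) fell (median −1.32), where 10.1% of all genes fell. At D4, 2 were higher and 1 was lower than at D0 by 2-fold. ID1, an inhibitor of basic helix-loop-helix factors, had 93.9 FPKM at D0, followed by 178 (D2), 303 (D4) and 51.0 (D8), highest in the same library as SMAD7. ID2 had 7.92, 10.5, 15.3 and 3.07 FPKM in the same order of stages as ID1, and ID3 had 793, 484, 546 and 345 FPKM, highest at D0. At D8, 5 of the 9 were lower than at D0 by 2-fold and 0 higher (median −1.19), where 3.68% and 3.60% of all genes were. ATOH8 and SMAD6, named after their values were seen, fell 9.33-fold and 3.55-fold from D4 to D8.

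**Figure D5:**
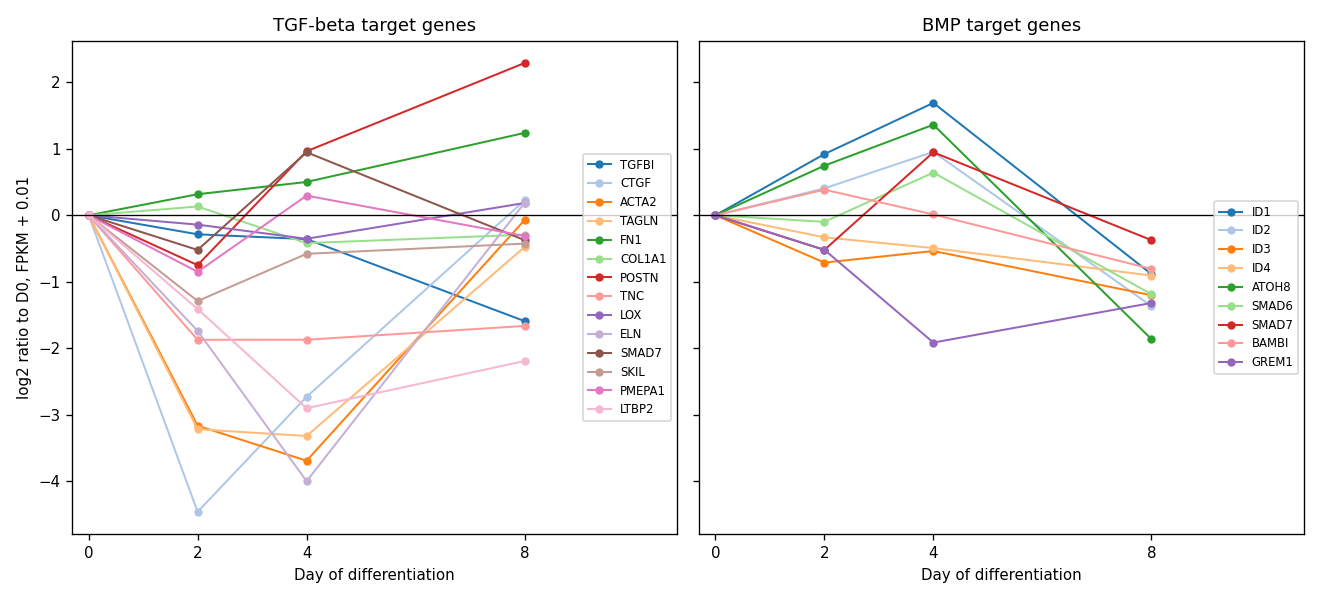
Log2 ratio to D0 of FPKM + 0.01 (vertical axis) by day of differentiation for 14 of the 15 TGF-beta target genes (left) and the 9 reliably expressed BMP target genes (right), 1 library per day. TGFBI is at −0.36 at D4 and −1.59 at D8, while CTGF, ELN, ACTA2 and TAGLN dip at D2 and D4. Of the 9 BMP target genes, 6 lie above D0 and 3 below it at D4, and 9 lie below it at D8.

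For each reliably expressed member, the genes most like it were those with the smallest Euclidean distance between their 3 log2 ratios to D0, among 4769 genes that reached 10 FPKM. With 3 ratios from 4 libraries, likeness is a description of shape alone. TGFB2 was closest to PCNA (distance 0.272), the DNA replication clamp, and TARDBP (0.278), an RNA-binding protein gene. SMAD3 was closest to ADAMTS9 (0.229), a matrix protease gene with 3.01, 6.50, 12.3 and 2.68 FPKM, and to PTPN1 (0.282), a tyrosine phosphatase gene. INHBA was closest to the kinase gene MAP2K1 (0.105) and the myosin phosphatase subunit gene PPP1R12A (0.117). TGFBI was closest to the zinc transporter gene SLC30A1 (0.177) and to CLU, clusterin (0.184). TGFB3 was closest to LOC102159655 (0.206) and RPA2 (0.270), and SMAD7 to LOC100525692 (0.257) and the glycogen synthase gene GYS1 (0.295).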

How the data were processed

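RNA of 4 stages, D0, D2, D4 and D8, was sequenced as 1 strand-specific, rRNA-depleted library each. The authors aligned reads with HISAT2 2.0.5 to Sscrofa11.1 and deposited FPKM per gene. The counting tool, its use of strand and its treatment of multiply mapped reads are not given in the sources used here. CircRNAs were called by the authors with CIRI after BWA-MEM alignment, from 2 or more junction reads, and deposited as SRPBM, a signal of junction reads scaled by all mapped reads.

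Library totals and read numbers were worked out from the deposited FPKM alone. Totals came from short genes whose length equals their genomic span. The smallest whole length that made a gene's 4 values whole reads within 0.002 was taken, and these reads made up 98.9% to 99.1% of the totals. Recovery was tested on simulated data. Ratios were computed on log2(FPKM + 0.01), which understates changes of low genes, for reliably expressed genes (1 FPKM or more in 3 or more libraries), and called at 2-fold without a test. Intervals are exact (Clopper-Pearson), 95%, from read numbers. Python 3.11.15, numpy 2.4.6, pandas 2.3.3, scipy 1.17.1 and matplotlib 3.10.9 were used.

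The members and lists were chosen with earlier results of these data known. Genes named were the 9 members, up to 5 other genes per pathway list with FPKM of at least 10 in a library, a 2-fold difference in a comparison and the widest range, the 2 genes most like each member, and circRNAs inside members. A gene that this rule names is not reported here. Gene positions were set beside RefSeq, which matched 8 of 9 members. A search of promoters for motifs was planned and not run. Alternatives were pseudocounts of 0.1 and 1, no filter or FPKM of at least 1 in all 4 libraries, a 1.5-fold threshold, median-ratio scaling, equal sums over protein-coding genes and, chosen after seeing the data, both rows named INHBA added.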

Additional observations from a re-analysis of the deposited data

Results flagged for a closer look

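Signals in data outside the main measurement were seen at 2 of the genes. Of 8623 circRNAs, 1 lay inside a member on its strand, ssc_circ_0005266 in TGFB2, on chromosome 10 from 8382470 to 8386109, a span of 3640 bases. It had 19 junction reads at D2 and 5 at D8, which are 138 and 42.0 SRPBM, and was listed at 0 at D0 and D4. The linear TGFB2 gene was highest at D4, and its D2 level, the lowest, did not differ from that at D0 beyond counting error. It had 1.66 FPKM at both D0 and D8, where the circRNA had 0 and 5 junction reads. A relation between the circRNA and the linear gene was not tested. In all, 107 circRNAs lay inside 31 of the 94 pathway genes in the table.

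The second row named INHBA, which is not a protein-coding row, held 142 reads at D0, 231 at D2, 354 at D4, then 88 at D8. Its level was highest at D4, whereas the protein-coding row was highest at D0. The cause of the difference between both rows was not tested.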

How the results depend on the processing

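With 1 library per stage, no library could be left out and no spread between piglets is known. No paired analysis was possible because each stage has 1 library of pooled RNA and the labels give no replicate numbers. The depth limits the statements on BMP2, which rest on 10 to 36 reads, and on TGFB1, which rest on 41 to 189. No ratio of a member past 2-fold changed its sign under another pseudocount, scaling or choice of INHBA row.

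With a pseudocount of 1, the members past 2-fold were 1 for D4 against D2, 2 for D8 against D4 and 1 for D4 against D0, and the pathway genes 7 for D4 against D2 and 11 for D8 against D0. That pseudocount shrinks the ratios of genes with a few FPKM, and 7 of 30 ratios of reliably expressed members crossed 2-fold. A pseudocount of 0.1 moved 2 of 30 across it, median-ratio scaling 3 and equal sums 1. Without the filter on low values, more genes were tested. The pathway genes were then 40 for D2 against D0, 24 for D4 against D2, 36 for D8 against D4, 44 for D4 against D0 and 30 for D8 against D0. The members were 4 rather than 3 for D4 against D2, TGFB1 added, and 6 rather than 4 for D8 against D4, TGFB1 and BMP2 added. For D8 against D0 they were 2, BMP2 added. With FPKM of at least 1 in all 4 libraries, the pathway genes were 7 for D4 against D2 and 12 for D8 against D0. At 1.5-fold, they were 21 for D4 against D2, 34 for D8 against D4 and 30 for D8 against D0. With both rows named INHBA added, the members past 2-fold were 2 rather than 3 for D2 against D0 and for D4 against D0.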
